A study of Zea mays with 10 samples.

Results

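FIE1 (Zm00001d049608) and FIE2 (Zm00001d024698) are the maize paralogs that encode the FIE subunit of Polycomb Repressive Complex 2 (PRC2). Both genes were taken by their identifiers, and they are 2 of the 45953 genes in the count tables. The supplementary tables pair the first identifier with the name fertilization independent endosperm1. None of those tables pairs the second identifier with a name, so FIE2 is here the gene of that identifier.

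PRC2 places the methyl marks on lysine 27 of histone H3 that keep target genes silent. Its core in plants holds a SET domain methyltransferase, a zinc finger protein, a WD-repeat protein of the MSI1 type and the WD-repeat protein FIE, the counterpart of animal EED, which binds the methylated histone tail and keeps the enzyme active. In Arabidopsis, loss of FIE lets endosperm begin to divide without fertilization, which gave the gene its name. In maize, FIE1 is known as a gene of the endosperm expressed from the maternal alleles, while FIE2 is known to be transcribed in many tissues, the embryo included. The libraries described here came from endosperm of 1 inbred line, so neither the parental origin of the transcripts nor their absence from other tissues could be read from them.

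Bulk RNA-seq measured endosperm of wild-type B73 plants grown in a greenhouse in 10 libraries. The replicated experiment held 3 libraries of endosperm at 7 days after pollination (DAP) and 3 at 6 DAP, each made from pooled endosperms, with the replicates taken from separate ears. The protoplast experiment held 1 library of protoplasts and 1 of undigested endosperm at 7 DAP, and 1 of each at 6 DAP. Protoplasts are cells freed of their walls, here by cellulase, macerozyme and pectolyase.

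The deposited counts are unnormalized and hold only reads that mapped to a single place, so reads that FIE1 and FIE2 or other copies have in common are not in them. The libraries held between 15911047 and 24311056 counts in the replicated experiment and between 22234742 and 30203337 counts in the protoplast experiment. Genes that mark the aleurone, the basal transfer layer, the starchy endosperm, the embryo surrounding region and the endosperm next to the scutellum had counts in every library. Embryo markers (the oil body genes OLE1, OLE3 and OBAP1A and the globulin gene GLB1) were also detected, and their summed level differed between the stages as given below.

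FIE1 was lower at 7 DAP than at 6 DAP in every library of the replicated experiment. In CPM, counts per 1000000 counts of the library, FIE1 had 254, 250.2 and 250.7 CPM in the 7 DAP libraries, against 311, 317 and 319 CPM in the 6 DAP libraries. The stages did not overlap, and their gap was far wider than the spread between replicates. FIE1 averaged 252 ± 2.04 CPM at 7 DAP and 316 ± 4.16 CPM at 6 DAP (SD, n = 3 each). These values rest on 4041 to 5055 reads per library at 7 DAP and 5149 to 7556 reads at 6 DAP.

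With edgeR's quasi-likelihood test on TMM-normalized counts, FIE1 fell by 0.44 on the log2 scale at 7 DAP relative to 6 DAP, so that its level fell by 26.4%. The standard error was 0.025, the 95% interval ran from -0.49 to -0.39, and the Benjamini-Hochberg adjusted p was 3.89e-12. The size depends on the scaling, since with library totals alone the log2 fold change was -0.33 (adjusted p = 5.43e-10 from the same edgeR test). An adjusted p under 0.05 is called a change here, and 56.3% of the 21486 genes tested passed it, 28.2% with a higher and 28.0% with a lower level at 7 DAP. The call on FIE1 is therefore a common one in these libraries. Non-overlap of the stages was also common, at 61.8% of the genes tested on TMM-scaled CPM. On that scale FIE1 had 241 to 244 CPM at 7 DAP and 322 to 334 CPM at 6 DAP. The size places FIE1 further out, since 11.0% of the genes tested had a lower log2 fold change. It lies well inside the limit of 2 on the log2 scale, which 2.99% of genes passed together with the adjusted p, 2.54% with a higher and 0.451% with a lower level at 7 DAP.

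FIE2 did not pass the test between the stages. It had 18.8, 18.5 and 20.3 CPM in the 7 DAP libraries, against 16.1, 19.8 and 18.3 CPM in the 6 DAP libraries. The stages overlapped, with the highest library at 7 DAP and the lowest at 6 DAP. The mean level of FIE2 was 19.2 ± 0.957 CPM at 7 DAP and 18.0 ± 1.85 CPM at 6 DAP (SD, n = 3 each). For FIE2 the log2 fold change was -0.016 with a standard error of 0.085, and the adjusted p from edgeR's test was 0.891. The 95% interval of -0.19 to 0.16 does not reach the estimate for FIE1. The sign of this small value depends on the scaling, since with library totals alone it was 0.10 (adjusted p = 0.329 from the same edgeR test).

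FIE2 was counted far less often than FIE1, which limits how small a change can be seen. Between 299 and 402 reads per library fell on FIE2 at 7 DAP, and between 321 and 391 at 6 DAP. The coefficient of variation of FIE2 between replicates was 4.99% at 7 DAP and 10.3% at 6 DAP, where counting alone would give about 5.29% and 5.39%. For FIE1 the coefficients were 0.811% at 7 DAP and 1.32% at 6 DAP, with 1.46% and 1.28% from counting alone. The replicates of FIE1 thus lay about as close together as the read numbers allow, while those of FIE2 were wider than counting alone at 6 DAP. The levels of the paralogs were not compared with each other, because that needs transcript lengths of the same annotation, which were not used here.

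**Figure D1:**
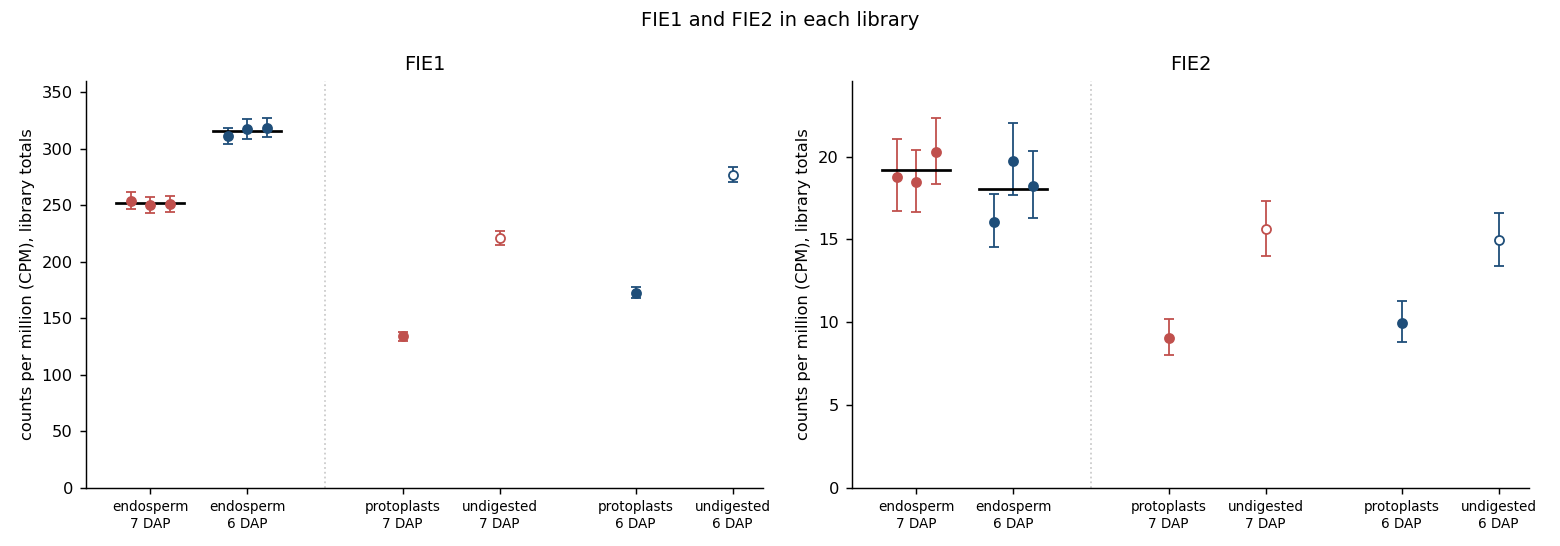
CPM of FIE1 (left) and FIE2 (right) in each of the 10 libraries, with 95% Poisson intervals of the count as bars and the mean of 3 libraries as a black line; filled red points are 7 DAP, filled blue points 6 DAP, and open points undigested endosperm. FIE1 lies at 250.2 to 254 CPM in the 7 DAP libraries, below the 311 to 319 CPM of the 6 DAP libraries, while the stages overlap for FIE2, and both genes are lower in protoplasts than in undigested endosperm at each stage.

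The balance between the paralogs does not depend on how a library is scaled, because both counts come from the same library. FIE1 had 13.5, 13.6 and 12.4 counts for each count of FIE2 in the 7 DAP libraries, against 19.3, 16.0 and 17.5 in the 6 DAP libraries. Every 7 DAP library lay below every 6 DAP library. The ratio averaged 13.1 ± 0.669 at 7 DAP and 17.6 ± 1.65 at 6 DAP (SD, n = 3 each), a difference of -0.42 in log2 ratio. An exact permutation test gave a two-sided p of 0.1, which is the smallest that 3 libraries against 3 can give.

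Expressed as a share of the counts on both genes, FIE2 took 6.89%, 6.87% and 7.48% in the 7 DAP libraries, against 4.92%, 5.87% and 5.42% in the 6 DAP libraries. The shares did not overlap between the stages. The 95% exact binomial intervals, which cover counting error only, reached from 6.15% to 8.21% over the 7 DAP libraries and from 4.45% to 6.52% over the 6 DAP libraries. At the level of single libraries some of these intervals meet, so the difference rests on all 6 libraries. The size of the ratio also holds the unequal lengths of the transcripts and of their unique stretches, and only its change between libraries was read.

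The libraries of the protoplast experiment gave the same stage order for FIE1. In protoplasts FIE1 had 134 CPM at 7 DAP and 173 CPM at 6 DAP, and in undigested endosperm it had 221 CPM at 7 DAP and 277 CPM at 6 DAP. On the scale of log2(CPM + 1), FIE1 was thus 0.36 lower at 7 DAP in protoplasts (difference -0.36) and 0.32 lower in undigested endosperm (difference -0.32). The 7 DAP level was 77.5% of the 6 DAP level in protoplasts, with a counting interval of the fold from 0.743 to 0.809. In undigested endosperm it was 79.8%, with an interval from 0.769 to 0.829. Each of these values compares 1 library with 1 library, so the variation between preparations was not measured and no p-value is given.

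FIE2 showed no such order. It had 9.04 CPM at 7 DAP and 9.98 CPM at 6 DAP in protoplasts, and 15.6 CPM at 7 DAP and 14.9 CPM at 6 DAP in undigested endosperm. The fold of 7 DAP over 6 DAP was 0.905 in protoplasts, with a counting interval from 0.762 to 1.08, and 1.04 in undigested endosperm, with an interval from 0.897 to 1.22. Both intervals include no difference. At 265 to 347 reads per library they are wide, and the protoplast interval also holds the fold of FIE1 there, while that of undigested endosperm does not.

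The count ratio of FIE1 to FIE2 was 14.8 at 7 DAP and 17.3 at 6 DAP in protoplasts, and 14.2 at 7 DAP and 18.5 at 6 DAP in undigested endosperm. Undigested endosperm at 7 DAP had 0.764 times the ratio of 6 DAP, with an exact conditional 95% interval from 0.654 to 0.894. In protoplasts the corresponding value was 0.856, with an interval from 0.716 to 1.02, which includes 1. The ratio was lower at 7 DAP in each pair of libraries, but the protoplast pair does not separate it from counting error.

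**Figure D2:**
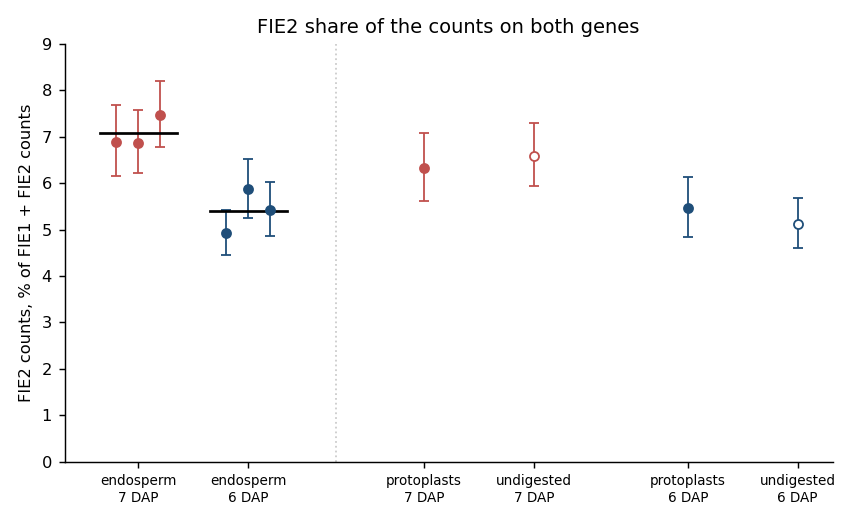
Share of FIE2 in the counts on FIE1 and FIE2 together, in percent, for each library, with exact binomial 95% intervals as bars and the mean of 3 libraries as a black line; red is 7 DAP, blue is 6 DAP, and open points are undigested endosperm. The 7 DAP libraries of the replicated experiment lie at 6.87% to 7.48%, above the 4.92% to 5.87% of the 6 DAP libraries, and at each stage the intervals of protoplasts and undigested endosperm overlap.

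Protoplasting went with lower levels of both paralogs. FIE1 had 134 CPM in protoplasts and 221 CPM in undigested endosperm at 7 DAP, and 173 CPM in protoplasts and 277 CPM in undigested endosperm at 6 DAP. The protoplast level was thus 60.6% of the undigested level at 7 DAP (counting interval of the fold 0.581 to 0.632) and 62.4% at 6 DAP (0.601 to 0.648). FIE2 in protoplasts was at 57.9% of the undigested level at 7 DAP (counting interval of the fold 0.492 to 0.681) and at 66.8% at 6 DAP (0.567 to 0.786). Every protoplast library lay below the undigested library of its stage for both genes, and the intervals of the paralogs overlapped at each stage.

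In edgeR's test with stage as a covariate, in which the stages stand in for replicates, FIE1 fell by 0.53 on the log2 scale in protoplasts relative to undigested endosperm (standard error 0.127, 95% interval -0.86 to -0.21, adjusted p = 0.0287). Of the 22799 genes tested, 39.4% passed an adjusted p of 0.05, 23.0% with a higher and 16.3% with a lower level in protoplasts. The call on FIE1 was lost without the stage covariate (adjusted p = 0.127 from edgeR's test), and FIE1 did not reach the further limit of 1 on the log2 scale that 25.7% of genes passed, 18.4% with a higher and 7.37% with a lower level. For FIE2 the log2 fold change was -0.52 (standard error 0.181, 95% interval -0.98 to -0.05), with an adjusted p of 0.078 from edgeR's test. The estimates for the paralogs were close to each other, but that of FIE2 passed the threshold only with library totals in place of TMM (adjusted p = 0.0393 from edgeR's test). The fold changes of this test are smaller than the CPM ratios above because TMM scaled the protoplast libraries up relative to the undigested ones.

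Neither gene stood far out in this comparison, since 24.2% of the genes tested had a lower log2 fold change than FIE1 and 24.9% had a lower one than FIE2. The balance of the paralogs differed between protoplasts and undigested endosperm by no more than counting error. The FIE1 to FIE2 ratio in protoplasts was 1.05 times that in undigested endosperm at 7 DAP (95% interval 0.885 to 1.24) and 0.934 times at 6 DAP (0.790 to 1.11).

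**Figure D3:**
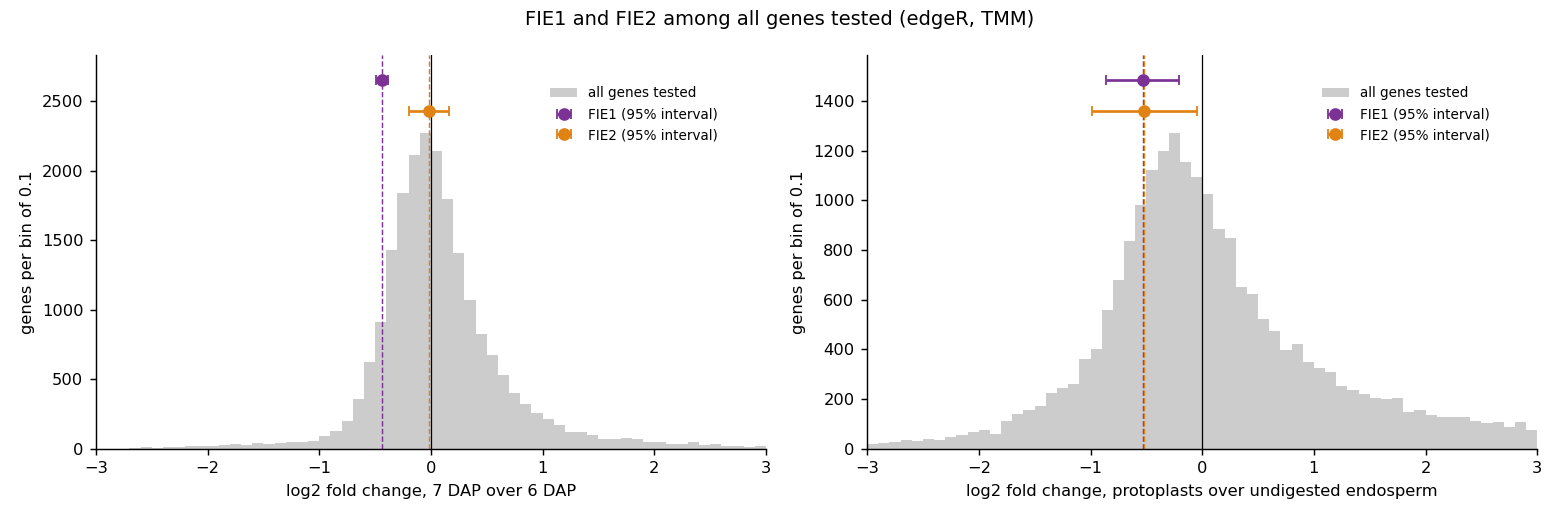
Number of genes tested in each bin of 0.1 log2 fold change, for 7 DAP over 6 DAP (left) and for protoplasts over undigested endosperm (right), with FIE1 in purple and FIE2 in orange, each with its 95% interval. Between the stages FIE1 at -0.44 lies in the lower flank and FIE2 at -0.016 in the middle of the distribution, while in protoplasts both lie close together at -0.53 and -0.52. Genes past 3 in either direction are not drawn.

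Other transcripts moved with these comparisons. UBI1, a ubiquitin gene used as a uniform control, had 2843 CPM in protoplasts and 836 CPM in undigested endosperm at 7 DAP, and 3011 CPM in protoplasts and 830 CPM in undigested endosperm at 6 DAP, a log2 fold change of 1.98 in the edgeR fit. A level of FIE1 or FIE2 set against UBI1 would thus be lower in protoplasts by more than the values above. Between the stages the range of UBI1 was 666 to 671 CPM at 7 DAP and 667 to 676 CPM at 6 DAP, and its TMM log2 fold change of -0.12 passed the test.

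Marker genes of the cell types also differed between the groups. The summed level of the 4 embryo genes was 566 to 593 CPM at 7 DAP and 62.2 to 69.3 CPM at 6 DAP in the replicated libraries. All 4 of 4 rose, where 28.2% of all genes tested rose. In the protoplast experiment their summed level was 211 CPM in protoplasts and 480 CPM in undigested endosperm at 7 DAP. At 6 DAP it was 79.2 CPM in protoplasts and 55.6 CPM in undigested endosperm. The 3 basal transfer layer markers summed to 169 to 178 CPM at 7 DAP and 468 to 507 CPM at 6 DAP, and the 3 markers of the embryo surrounding region to 1555 to 1579 CPM at 7 DAP and 271 to 282 CPM at 6 DAP. The 3 aleurone markers summed to 9564 to 9776 CPM at 7 DAP and 5496 to 5647 CPM at 6 DAP. Starchy endosperm markers, also 3, summed to 5217 to 5319 CPM at 7 DAP and 4082 to 4199 CPM at 6 DAP, and the 2 markers of the endosperm next to the scutellum to 85.7 to 87.4 CPM at 7 DAP and 28.1 to 29.9 CPM at 6 DAP. Basal transfer layer markers were thus the one endosperm list with a lower sum at 7 DAP, the stage at which FIE1 was lower. The sums hide members that moved apart. In the starchy endosperm list FL3 fell, with a mean of 1251 CPM at 7 DAP and 2010 CPM at 6 DAP, while ZP27 and TAR1 rose. The relation of these markers to FIE1 was not tested.

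The summed levels of all 5 endosperm marker lists were lower in protoplasts than in undigested endosperm at both stages, as were FIE1 and FIE2. At 7 DAP the sums in protoplasts and in undigested endosperm were 1361 and 5932 CPM for the starchy endosperm, 9.54 and 84.3 CPM for the endosperm next to the scutellum, and 551 and 1647 CPM for the embryo surrounding region. They were 72.9 and 135 CPM for the basal transfer layer and 5754 and 9833 CPM for the aleurone. At 6 DAP the sums in protoplasts and in undigested endosperm were 1684 and 4824 CPM for the starchy endosperm, 8.78 and 30.9 CPM for the endosperm next to the scutellum, and 72.9 and 296 CPM for the embryo surrounding region. They were 84.2 and 367 CPM for the basal transfer layer and 4283 and 5551 CPM for the aleurone. By edgeR's test 3 of 3 markers of the embryo surrounding region, 2 of 2 of the endosperm next to the scutellum and 2 of 3 of the starchy endosperm fell in protoplasts. So did 1 of 3 of the basal transfer layer and 1 of 3 of the aleurone, where 16.3% of all genes tested were lower. None of the 4 embryo genes passed, where 39.4% of all genes tested did. The transfer layer marker MRP1 went against its sum at 7 DAP, with 16.0 CPM in protoplasts and 11.2 CPM in undigested endosperm. None of the marker genes was at 0 in any library. In bulk tissue, fewer cells of a type and less RNA per cell cannot be told apart, and the part of these cell types in the values of FIE1 and FIE2 was not tested.

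Across all libraries, the order of FIE1 levels was replicated endosperm at 6 DAP, undigested endosperm at 6 DAP, replicated endosperm at 7 DAP, undigested endosperm at 7 DAP, protoplasts at 6 DAP and protoplasts at 7 DAP. Each neighbour in this order lay outside the 95% counting interval of the next. The levels come from different experiments, so they were only set side by side. FIE2 was highest in the replicated endosperm of both stages, which did not differ beyond their spread. Undigested endosperm at 7 DAP and 6 DAP followed, with overlapping intervals of 14.0 to 17.3 CPM at 7 DAP and 13.4 to 16.6 CPM at 6 DAP, which also hold the lowest replicated library of 6 DAP. Protoplasts were lowest, with overlapping intervals of 8.00 to 10.2 CPM at 7 DAP and 8.82 to 11.3 CPM at 6 DAP.

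FIE1 and FIE2 were next set beside 26 other chromatin genes, chosen by name and role from the supplementary tables. The choice was made with earlier results of these data known. The counts and medians therefore describe these 26 genes only, and they are no test of chromatin genes as a class. At 7 DAP, 20 of the 26 fell, 1 rose and 5 did not pass an adjusted p of 0.05, where 28.0% of all genes tested fell. The median log2 fold change of the 26 genes was -0.33, and that of all genes tested was 0.016. With library totals alone the median over all genes moved to 0.13, 19 of the 26 fell, 3 rose and their median was -0.22, where 19.4% of all genes tested fell.

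The MSI1-type WD-repeat proteins, which sit in PRC2 beside FIE and also in histone chaperones, did not pass the test between the stages, as FIE2 did not. RBAP2 had 121, 127 and 122 CPM at 7 DAP, against 107, 114 and 117 CPM at 6 DAP, with a TMM log2 fold change of 0.022 (adjusted p = 0.664 from edgeR's test). The libraries of RBAP2 did not overlap on the scale of library totals. On TMM-scaled CPM they did, with 115.8, 122.7 and 117.7 at 7 DAP against 110.7, 118.3 and 122.7 at 6 DAP. With library totals 1 of the 2 genes of this group rose, where 8360 of the 21486 genes tested rose. NFC103B had a log2 fold change of -0.18 with an interval of -0.55 to 0.20, and its libraries lay at 3.02 to 4.65 CPM at 7 DAP and 3.74 to 4.56 CPM at 6 DAP.

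Among genes of DNA methylation, 4 of 5 fell at 7 DAP. The share of all genes tested that fell was 28.0%, for this and the following groups. The cytosine methyltransferase genes MET2, MET5 and MET8 had log2 fold changes of -0.25, -0.32 and -0.42, and VIM102, whose family binds methylated DNA, had 0.078 and did not pass. The linker histone genes, which close the nucleosome, fell in 3 of 3 cases in the replicated libraries, from -0.19 for HON101 to -0.62 for HON106A. In the single libraries of undigested endosperm, 7 DAP over 6 DAP gave folds of 0.892 for HON101, 0.670 for HON106A and 0.683 for HON110. In protoplasts the same folds were 1.23, 1.30 and 1.20, so the stage order of the linker histones was opposite there, unlike that of FIE1. Histone chaperones of the nucleosome assembly and chromatin assembly types fell in 5 of 5 cases, between -0.40 for NFA104 and -0.62 for NFA101A. FIE1 at -0.44 lay within the range of these chaperones.

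The plant-specific histone deacetylases HDT102, HDT103 and HDT104 fell in 3 of 3 cases, where 28.0% of all genes tested fell. Their log2 fold changes were -0.49, -0.47 and -0.68. HDT104, with the lowest of these, had 125, 129 and 130 CPM at 7 DAP, against 181, 187 and 202 CPM at 6 DAP. Of the 5 chromatin remodeller genes, 4 fell and 1 rose at 7 DAP, where 28.0% of all genes tested fell and 28.2% rose. CHR101 had the lowest value of the 5 at -0.54. Of the 3 genes with a SET or jumonji domain, SDG118 fell by 0.28 on the log2 scale and the other two did not pass. With library totals 3 of the 5 remodellers fell, where 19.4% of all genes tested fell. The median of the SET and jumonji genes turned from -0.038 to 0.077 with library totals.

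In protoplasts 16 of the 26 genes were lower, 1 was higher and 9 did not pass, where 16.3% of all genes tested were lower. Their median log2 fold change was -0.64 against -0.028 over all genes tested, and with library totals 19 were lower, 1 was higher and the medians were -0.81 for the 26 genes and -0.20 for all genes, of which 23.8% were lower. FIE1 at -0.53 and FIE2 at -0.52 were less negative than the median of the 26. SDG122, a SET domain gene, had the lowest value at -2.29, and MET2 had -1.01 and HDT102 had -0.85. HON101 was the gene that was higher, at 0.73, while the other linker histones HON106A and HON110 had 0.066 and -0.053 and did not pass. These values average pairs of opposite direction, since protoplasts over undigested endosperm gave CPM folds for HON106A of 1.30 at 7 DAP and 0.668 at 6 DAP, and for HON110 of 1.14 at 7 DAP and 0.646 at 6 DAP. RBAP2 had -0.30 and NFC103B had -0.87, and neither passed the adjusted p of 0.05.

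**Figure D4:**
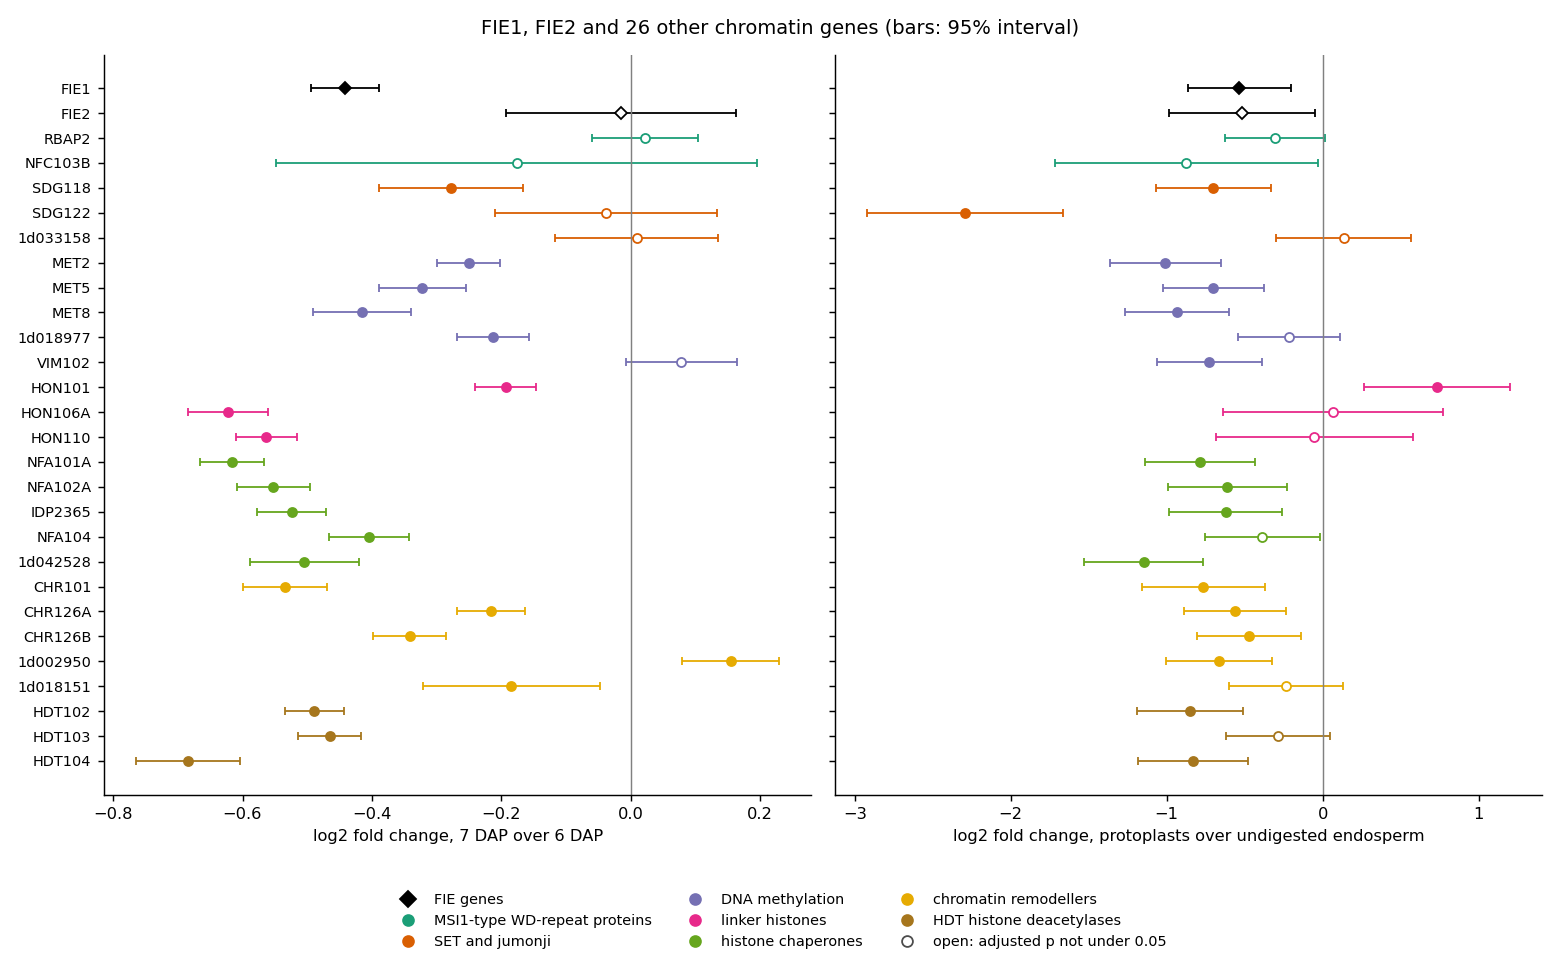
Log2 fold changes of FIE1, FIE2 and 26 other chromatin genes with 95% intervals, for 7 DAP over 6 DAP (left) and protoplasts over undigested endosperm (right), with TMM scaling; colours give the group of each gene and open symbols mark genes whose adjusted p was not under 0.05. At 7 DAP FIE1 at -0.44 lies within the range of the chaperone genes and FIE2 beside RBAP2 near 0, and in protoplasts 23 of the 26 other genes lie below 0. The horizontal axes of the panels differ.

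FIE1 was also set beside other genes named or known as maternally expressed in endosperm. MEG1, MEG3 and MEG13, which encode small secreted peptides, fell at 7 DAP with log2 fold changes of -1.69, -1.25 and -1.87. MEG14 of the same family rose by 2.77, and NRP1 rose by 0.85. These genes moved in both directions, and each of their fold changes was larger in size than that of FIE1. MEG genes are similar copies counted by unique reads alone, so single values are uncertain.

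The genes whose pattern was most like that of FIE1 were sought over all 10 libraries among 1786 named genes with a mean of at least 10 CPM. Likeness was the root mean square difference of log2(CPM + 1) after each gene was centred on its own mean. MTA2 was the named gene closest to FIE1, with a difference of 0.037 and a Pearson r of 0.997. It held rank 3 among all genes of that level, named or not. The next genes were pco079325 (0.042), PDI8, which encodes a protein disulfide isomerase (0.042), GOT2 (0.052) and MCH1 (0.057). All 5 had lower levels at 7 DAP than at 6 DAP and lower levels in protoplasts, in the shape that FIE1 has in the plot of centred profiles. They were chosen by that shape, so this order is no separate result about them.

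For FIE2, 4 of the 5 closest named genes are described. They were PGM2, a phosphoglucomutase gene, with a difference of 0.089 and r = 0.970, pco118328a (0.098), PRO1 (0.102) and RBAP2, the MSI1-type gene described above (0.103). Many genes without a name lay closer to FIE2. Among all genes with a mean of at least 10 CPM, these held ranks 24, 44, 63 and 71. The differences were larger for FIE2, whose few reads add counting error to each point. FIE1 and FIE2 lay 0.202 apart, with r = 0.853, and FIE2 held rank 1857 by closeness to FIE1 where 13418 genes had a mean of at least 10 CPM. These are descriptions over 10 libraries that include the contrast between protoplasts and undigested endosperm, and no p-value is attached to r.

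**Figure D5:**
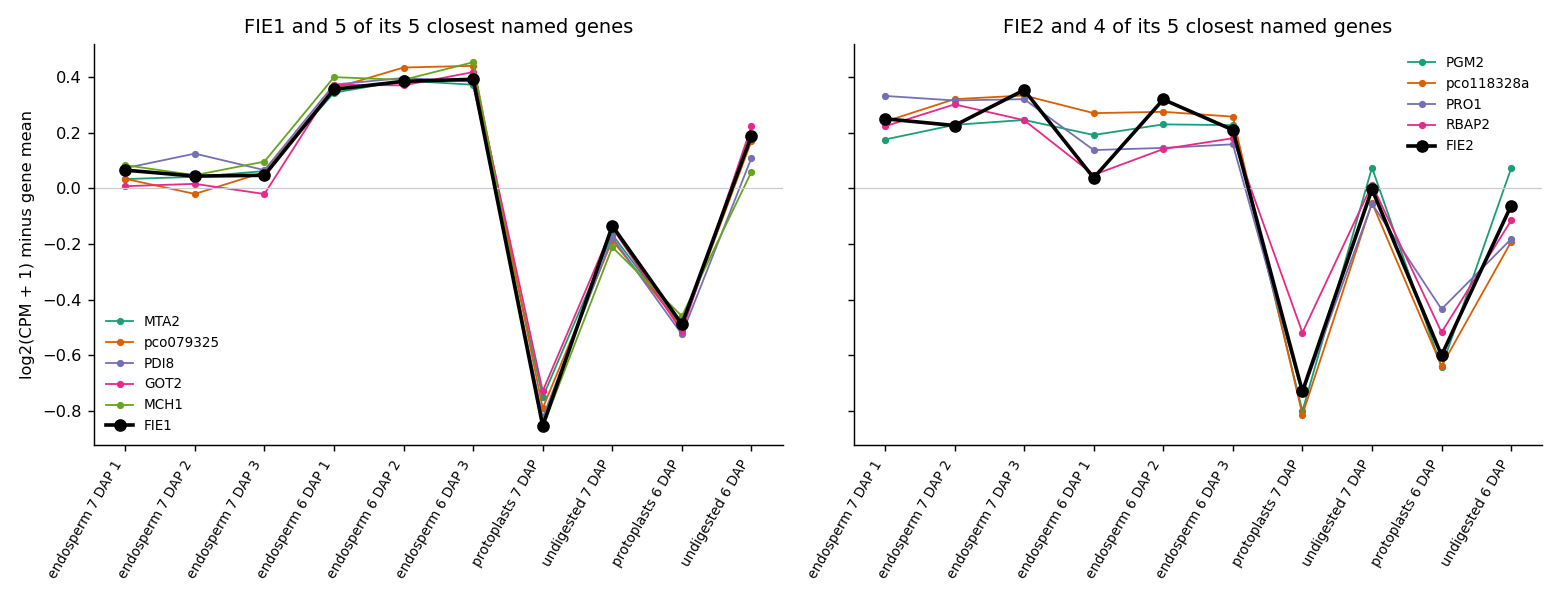
Level of FIE1 with its 5 closest named genes (left) and of FIE2 with 4 of its 5 closest (right) in each of the 10 libraries, as log2(CPM + 1) minus the mean of the gene. FIE1 and its closest genes are lower in the 7 DAP than in the 6 DAP replicated libraries, FIE2 and the genes drawn with it are not, and both panels are lowest in protoplasts at 7 DAP.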

How the data were processed

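The authors trimmed the reads with Trimmomatic 0.39, aligned them with STAR to the B73 v4 genome and counted uniquely mapped reads per gene with featureCounts 2.0.1. The values the authors deposited are raw counts without normalization. Labels and methods differ on the library kit. The extract protocol in the labels names 6, 7 and 8 DAP together when it describes the pooled endosperms, so it does not state outright that each pool held 1 stage, while the methods describe pools at 6 and 7 DAP. Libraries were grouped by the age and treatment in their own labels.

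The counts were tested with edgeR 4.0.16 in R 4.3.3, with TMM normalization and the genes that filterByExpr keeps. Its quasi-likelihood test was used, and p-values were adjusted by Benjamini-Hochberg over all genes tested. The stage comparison had no covariate, and the protoplast comparison had stage as a covariate. CPM were scaled by library totals. Intervals on single libraries are exact Poisson, binomial or conditional intervals at 95% and cover counting error only, since reads are not independent molecules. In simulated counts with a log2 change of 0.45 between the stages, 184 of 200 changed genes were recovered. In the protoplast design 1 of 200 was recovered with a change of 0.5, and 200 of 200 with a change of 2. The simulations had a single dispersion for all genes and 200 changed genes, where 56.3% and 39.4% of genes passed in the data. Because the adjusted p depends on that share, these recoveries do not give the power of the tests here. Replicates of a stage differed by more than sampling noise. The labels do not pair the libraries of the stages by replicate number.

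Alternatives were other normalizations and filters, DESeq2 1.42.0, the replicate number as a block, no stage covariate and leaving out each replicate. The genes and gene lists were chosen with earlier results of these data known. For each of FIE1 and FIE2, the 5 named genes of the most similar centred profile were chosen, and 1 of those for FIE2 is not reported here. Gene names came from the supplementary tables, because 0 genes of the RefSeq table (assembly Zm-B73-REFERENCE-NAM-5.0) carry the identifiers of the count tables. Positions, sequences and transcript lengths were therefore not used here.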

Additional observations from a re-analysis of the deposited data

Results flagged for a closer look

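The stage difference of FIE2 had opposite signs in the single libraries of the protoplast experiment. On the scale of log2(CPM + 1), 7 DAP minus 6 DAP was -0.13 in protoplasts and 0.059 in undigested endosperm. Each value compares 1 library with 1 library, the counting intervals of both include no difference, and the difference between them was not tested.

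The linker histone genes also had opposite stage differences in these libraries. On the same scale, 7 DAP minus 6 DAP was 0.30 in protoplasts and -0.17 in undigested endosperm for HON101. HON106A had 0.38 in protoplasts and -0.58 in undigested endosperm, and HON110 had 0.27 in protoplasts and -0.55 in undigested endosperm. The counting intervals of these 6 values do not include 0, but the difference between protoplasts and undigested endosperm was not tested, since each value again rests on 1 library per stage. Only FIE1, FIE2 and the linker histones were searched for opposite signs, which were not particular to these genes. Among the marker genes, ZP27 had -3.03 in protoplasts and 2.52 in undigested endosperm, and VPP7 had -0.17 and 0.57. Other markers kept 1 direction, such as AL9 with 0.68 in protoplasts and 0.97 in undigested endosperm.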

How the results depend on the processing

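The decrease of FIE1 at 7 DAP kept its direction and its call in 12 of 12 alternatives, between -0.46 and -0.33 on the log2 scale. The value of -0.33 came with library totals. The difference in log2 ratio of FIE1 to FIE2 kept its direction in 8 of 8, between -0.48 and -0.35. For FIE2 between the stages no alternative passed the threshold, and the sign turned with library totals (0.10) and under a filter of 10 or more counts per library (0.0012). Leaving out each replicate in turn gave -0.11 to 0.047 for FIE2, -0.46 to -0.43 for FIE1 and -0.48 to -0.35 for the log2 ratio. With the replicate block FIE1 had -0.44 (adjusted p = 2.22e-10 from edgeR), FIE2 had -0.023 and the log2 ratio -0.42. The block left 6055 genes higher and 5945 lower at 7 DAP, against 6067 and 6025 without it. Deviations of same-numbered libraries correlated at 0.104, 0.022 and -0.0045, and not every library correlated best with its own number. Such weak values cannot show whether libraries were paired. The stages were treated as unpaired because the labels do not pair them.

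In protoplasts, FIE1 lost its call without the stage covariate (log2 fold change -0.54, adjusted p = 0.127 from edgeR), and FIE2 gained one with library totals (-0.69, adjusted p = 0.0393). DESeq2 gave adjusted p-values of 0.0301 for FIE1 and 0.264 for FIE2. The stage difference of FIE1 in undigested endosperm was -0.40 with TMM-scaled CPM and -0.32 with library totals. Library totals also moved the share of higher genes among those called to 66.8% between the stages, against 50.2% with TMM, and to 46.1% in protoplasts, against 58.5%. The cause of these shifts was not tested. The protoplast comparison has 1 library per stage and treatment, and FIE2 rests on at most 402 reads in a library.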
